A study of Bos taurus with 16 samples.

Results

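FKBP5, ZBTB16, MT1E and DUSP1 are 4 genes that are known to respond to glucocorticoids, the steroid hormones that the adrenal gland releases under stress, and they are 4 of the 27607 genes measured in the prefrontal cortex (PFC) of 16 bulls. They were taken from the study's table of genes that differed between an aggressive and a non-aggressive cattle breed, so they were selected on the difference in level between the breeds, and that difference is given below as a description and carries no test. The groups were 8 bulls of the Lidia breed, selected for aggressive behaviour, and 8 bulls of the Wagyu breed, selected for meat quality and docility, all of them non-castrated males aged 3 years except 1 Lidia bull aged 4 years. 4 of the Lidia bulls came from the farm La Quinta and 4 from Montealto, whereas all Wagyu bulls came from a single farm. PFC was taken after death, at the bullring for the Lidia bulls, which had been incited to agonistic behaviour beforehand, and at the slaughterhouse for the Wagyu bulls. Feeding differed too: the Lidia bulls were on pasture until the last months before death and then received concentrates. The Wagyu bulls were on a high-concentrate diet from an earlier age until slaughter. Breed, farm, feeding, handling before death and place of sampling can therefore not be told apart in any difference between the groups.

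Glucocorticoids enter the cell and bind the glucocorticoid receptor, NR3C1, which moves to the nucleus and switches target genes on or off. FKBP5 encodes a co-chaperone of that receptor which lowers its affinity for the hormone and is itself induced by it, so that the gene forms a short negative feedback loop in brain and other tissues. ZBTB16 (also called PLZF) encodes a zinc finger transcription factor, MT1E belongs to the metallothioneins, small proteins that bind zinc and copper and that metals as well as glucocorticoids induce, and DUSP1 encodes a phosphatase that inactivates MAP kinases and is induced by glucocorticoids and, as an immediate early gene, by many stimuli of the cell.

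Gene levels are given as scaled FPKM, the deposited fragments per kilobase of exon, relative to the mapped fragments of each animal, summed over the transcripts of a gene and divided by a scaling factor per animal (median of ratios, described with the processing). Depth was between 7.67 M and 37.0 M fragments per animal (M, 10 to the power 6), when 200 bases are counted per fragment. The scaling factor was 2.21 in Wagyu replicate 4 and 1.78 in Lidia replicate 4, and it lay between 0.686 and 1.13 in 13 animals. The lowest factor, 0.617, was that of Lidia replicate 6. These 3 animals stand apart in the deposited FPKM, and results were also computed without them. Of the 16577 genes tested between the breeds with limma, 827 were called, which is 4.99%; 552 were higher in the Lidia group (3.33%) and 275 were lower (1.66%). Gene symbols came from the study's table of differing genes alone, and among the 1100 tested genes with a symbol 44.5% were called, 34.2% higher and 10.3% lower in the Lidia group, and 5.73% did not overlap between the breeds. These are the shares to set beside the counts of named genes below. On the FPKM as deposited, limma called 0 genes, with 1022 at an unadjusted p under 0.05.

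FKBP5 (ENSBTAG00000047502, ARS-UCD 1.2, chr23:9555619-9672159, minus strand, 1 annotated transcript) had the widest difference of the 4 on the scaled values with all animals, though not with the La Quinta bulls alone, without Lidia replicate 7 or with array weights, where MT1E was wider. Its scaled FPKM was 8.24 at the lowest, 10.8 at the median and 15.3 at the highest of the 8 Wagyu bulls, and 2.25, 3.75 and 5.44 in the 8 Lidia bulls. Every Lidia bull was below every Wagyu bull. The log2 difference, Lidia minus Wagyu, was -1.56 (SE 0.16), a level 2.96-fold higher in the Wagyu group, and it ranked 26th from the lowest of the 16577 genes tested. Values of the breeds that do not overlap in that direction were found for 53 of the 16577 genes, or 0.32%. Among the tested genes with a symbol, the table from which FKBP5 was taken, 5.73% did not overlap in either direction. The difference was -1.69 with the La Quinta bulls alone and -1.44 with the Montealto bulls alone, and -1.44 with array weights (-1.52 for MT1E).

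MT1E (ENSBTAG00000038706, chr18:24029352-24032186, minus strand, 3 annotated transcripts) was the second gene with no overlap. In the Wagyu group its scaled FPKM had a minimum of 2.49, a median of 2.82 and a maximum of 4.70, and in the Lidia group the corresponding values were 0.533, 1.07 and 2.18. The log2 difference was -1.44 (SE 0.22), so the level was 2.71-fold higher in the Wagyu group. The gene is expressed at a low level, and only 18 to 51 fragments per Lidia bull and 27 to 89 per Wagyu bull stand behind these values. The 3 transcripts are 506, 691 and 1382 bases long, and a fragment assigned to a longer transcript adds less FPKM. The fold, the lack of overlap and the ranges of MT1E thus depend on how these few fragments were divided among the transcripts. The part of this division in the difference was not tested. The farms differed in its scaled FPKM: the 4 La Quinta bulls lay between 0.533 and 0.956. The 4 Montealto bulls lay between 1.18 and 2.18 and so above all of them. This separation depends on the same division of fragments. The log2 difference to the Wagyu group was -1.91 for La Quinta and -0.97 for Montealto.

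ZBTB16 (ENSBTAG00000011266, chr15:24583310-24781391, plus strand, 1 annotated transcript) was lower in the Lidia group by a smaller margin. The Wagyu bulls ranged from 2.93 to 6.33 with a median of 4.93, and the Lidia bulls from 2.06 to 3.80 with a median of 2.70. The groups overlapped, and 5 of the 8 Lidia bulls were below all Wagyu bulls. The log2 difference was -0.77 (SE 0.16), a level 1.71-fold higher in the Wagyu group, with -0.82 for La Quinta and -0.72 for Montealto.

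DUSP1 (ENSBTAG00000013863, chr20:4540518-4543611, minus strand, 1 annotated transcript) went the other way. Its scaled FPKM was 5.01 at the lowest, 8.73 at the median and 12.2 at the highest of the Wagyu bulls, and 9.07, 14.8 and 23.2 in the Lidia bulls. The groups overlapped, and 6 of the 8 Lidia bulls were above all Wagyu bulls. The log2 difference was 0.92 (SE 0.22), a level 1.89-fold higher in the Lidia group, with 0.72 for La Quinta and 1.13 for Montealto. It fell to 0.48 (SE 0.29) with the summed level of meningeal fibroblast markers in the fit, an alternative chosen after seeing the data. That level itself had a higher median in the Lidia group, so the fall cannot be assigned to it or to breed.

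**Figure D1:**
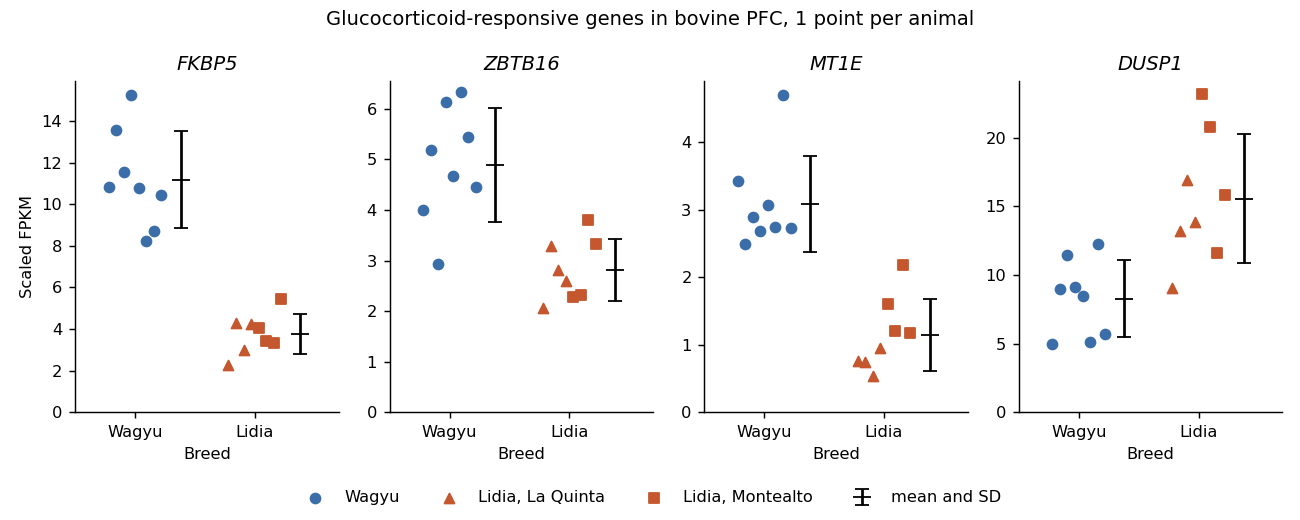
Scaled FPKM (vertical axis, linear, from 0) of FKBP5, ZBTB16, MT1E and DUSP1 by breed, with 1 point per animal, symbols for the farm of the Lidia bulls, and the mean and SD of each group of 8. FKBP5 and MT1E do not overlap between the breeds, ZBTB16 and DUSP1 do, and DUSP1 alone is higher in the Lidia group.

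The 4 genes differed in their spread among animals of a breed. The SD of the log2 level in the Wagyu group was 0.28 for MT1E, 0.29 for FKBP5, 0.35 for ZBTB16 and 0.50 for DUSP1. In the Lidia group it was 0.30 for ZBTB16, 0.38 for FKBP5, 0.44 for DUSP1 and 0.60 for MT1E, the gene with the fewest fragments. In scaled FPKM, the highest Lidia bull thus had 4.08 times the MT1E level of the lowest. The highest Wagyu bull had 1.89 times that of the lowest. These ranges too depend on how fragments were divided among the MT1E transcripts. Without the scaling between animals, the direction of all 4 genes was the same and their SE was wider, with log2 differences of -1.61 (SE 0.31) for FKBP5, -0.81 (SE 0.30) for ZBTB16, -1.48 (SE 0.28) for MT1E and 0.88 (SE 0.30) for DUSP1. On that scale 7 of the 8 Lidia bulls were below all Wagyu bulls for FKBP5, and 8 of 8 for MT1E.

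MT1E is annotated with 3 transcripts, which allows its parts to be described. ENSBTAT00000046456 (506 bases) and ENSBTAT00000078606 (691 bases) have 3 exons each, share their first 2 exons in genome order, at chr18:24029352-24029584 and chr18:24030524-24030589, and differ in the remaining exon. ENSBTAT00000072451 (1382 bases) has 2 exons, and its second one, at chr18:24030524-24031672, runs on through what is an intron of ENSBTAT00000078606. The gene lies on the minus strand, so the 5′ end of each transcript is at the higher coordinate.

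The lower MT1E level of the Lidia group lay in the forms with 3 exons. Summed over both, their scaled FPKM was 1.31 at the lowest, 2.82 at the median and 4.70 at the highest of the Wagyu bulls. In the Lidia bulls it was between close to 0, in replicate 3, and 1.85, with a median of 0.352, and 7 of the 8 were below all Wagyu bulls. The form with 2 exons had a scaled FPKM between 0.231 and 1.03 in the Lidia bulls, with a median of 0.499, and was between 0 and 0.0474 in 7 Wagyu bulls and 1.18 in Wagyu replicate 2.

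As a share of the MT1E FPKM of each animal, the form with 2 exons ranged from 15.0% to 100% among Lidia bulls (median 57.5%). In the Wagyu group it held at most 1.54% in 7 bulls and 47.2% in replicate 2. The mean share was 55.7% ± 32.7 (SD, n = 8) in the Lidia group and 6.41% ± 16.5 (SD, n = 8) in the Wagyu group, a difference of 49.2 percentage points. ENSBTAT00000046456 held 27.9% ± 22.0 (SD, n = 8) in the Lidia and 54.8% ± 11.1 (SD, n = 8) in the Wagyu group. The share of ENSBTAT00000078606 was 16.5% ± 25.7 (SD, n = 8) and 38.8% ± 19.1 (SD, n = 8). These shares compare the same groups that chose the gene and are given without a test, and with the 18 to 89 fragments per animal given above, divided among overlapping transcripts, each animal's share is imprecise.

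**Figure D2:**
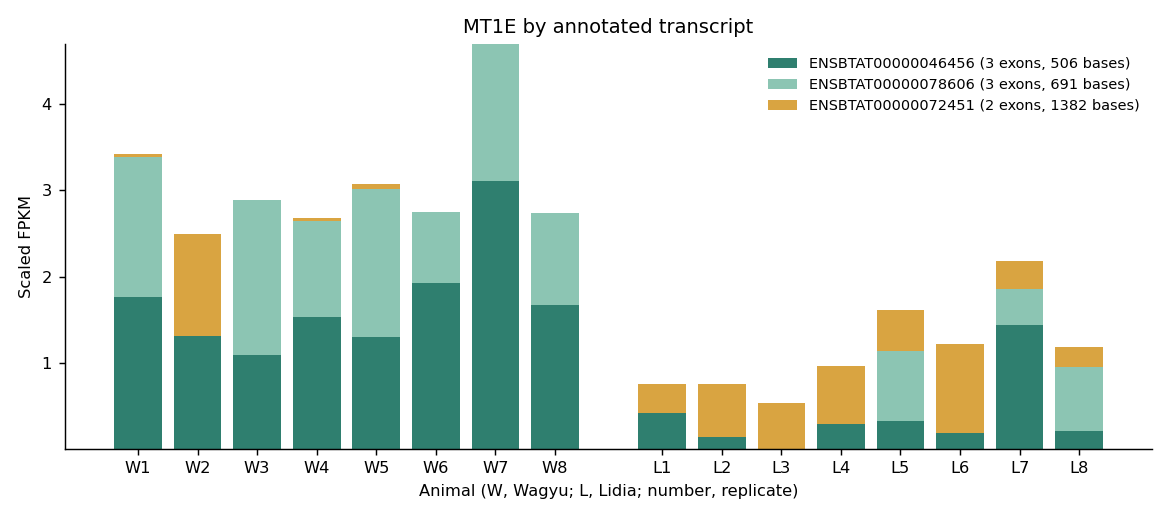
Scaled FPKM of MT1E (vertical axis, linear, from 0) in each animal (horizontal axis), stacked by annotated transcript. The 2 green parts, the transcripts with 3 exons, make up nearly the whole bar in 7 of the 8 Wagyu bulls, and the yellow part, the transcript with 2 exons, is present in all 8 Lidia bulls and is large in Wagyu replicate 2.

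The neighbours of MT1E on chromosome 18 showed no called difference between the breeds. In order along the minus strand cluster, ENSBTAG00000054808 had a log2 difference of 0.17 (SE 0.27), ENSBTAG00000001595 of -0.15 (SE 0.32), MT2A, a metallothionein of most tissues, of 0.51 (SE 0.25) and MT3, the metallothionein typical of brain, of 0.39 (SE 0.24). None of these 4 was called by limma. A further pair of genes, ENSBTAG00000049147 and ENSBTAG00000015084, was at or close to 0 in every animal. MT2A and MT3 were far more abundant than MT1E, with medians in the Wagyu group of 49.4 and 288 scaled FPKM.

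Lidia replicate 6 stood apart in the cluster, with 229 scaled FPKM of MT2A and 1152 of MT3, while the other Lidia bulls reached at most 72.6 and 352. Its MT1E level, 1.21, was inside the range of its group. Metallothionein genes resemble each other closely, and how the authors' counting divided reads among them is not known. The symbol MT1E is also uncertain: in a RefSeq table of cattle genes it is the symbol of 0 genes and a synonym of 3, so the gene is identified here by its Ensembl identifier and position.

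Whether the 4 genes rise and fall together among animals of a breed is a question that their choice did not answer in advance. All 6 pairs were examined with limma, with breed as a covariate, and none passed the test after adjustment over all genes tested, with adjusted p-values between 0.707 and 1.00. The slope of ZBTB16 on FKBP5 was 0.20 (SE 0.25) log2 units per log2 unit, and that of DUSP1 on FKBP5 was 0.50 (SE 0.34). The slope of MT1E on FKBP5 was 0.08 (SE 0.36). On ZBTB16, the slope was 0.21 (SE 0.36) for MT1E and -0.23 (SE 0.36) for DUSP1, and the slope of DUSP1 on MT1E was 0.22 (SE 0.25). With standard errors of this size, positive as well as negative slopes lie within 2 SE of each of these values. Farm was not taken into account in these fits or in the correlations below. Differences between the Lidia farms, as in MT1E, therefore enter both.

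The correlations within each breed lay on both sides of 0. Over the 12 of them, Pearson's r lay between -0.53 and 0.48, and the lowest exact permutation p was 0.181 (adjusted 0.871) for r and 0.216 (adjusted 0.935) for Spearman's rho. For FKBP5 with ZBTB16, r was 0.48 in the Lidia group (exact p = 0.235; rho 0.40, exact p = 0.327), and -0.16 without the 2 bulls farthest from the FKBP5 median. In the Wagyu group that r was -0.08 (exact p = 0.851; rho -0.24, exact p = 0.582), and -0.22 without the 2 farthest bulls. For FKBP5 with DUSP1, r was 0.44 in the Lidia group (exact p = 0.266; rho 0.24, exact p = 0.582) and 0.27 in the Wagyu group (exact p = 0.508; rho 0.26, exact p = 0.536), and without the 2 farthest bulls it was -0.06 and -0.12.

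In the other pairs, leaving out the 2 bulls farthest from the median of the first gene moved r towards 0 in some cases and away from it in others. For MT1E with DUSP1 in the Lidia group it went from 0.19 to 0.90 (with all 8, exact p = 0.653; rho 0.19, exact p = 0.665), and in the Wagyu group from 0.31 to 0.12 (exact p = 0.50; rho 0.05, exact p = 0.935). For FKBP5 with MT1E it went from -0.53 to -0.87 in the Wagyu group (exact p = 0.181; rho -0.50, exact p = 0.216) and from 0.27 to 0.08 in the Lidia group (exact p = 0.519; rho 0.10, exact p = 0.840). For ZBTB16 with DUSP1 it went from -0.17 to -0.75 in the Lidia group (exact p = 0.683; rho -0.21, exact p = 0.619) and from -0.16 to 0.81 in the Wagyu group (exact p = 0.725; rho 0.07, exact p = 0.882). For ZBTB16 with MT1E it went from 0.27 to -0.48 in the Lidia group (exact p = 0.509; rho 0.12, exact p = 0.793) and from -0.02 to -0.05 in the Wagyu group (exact p = 0.951; rho -0.26, exact p = 0.536). Over the 12 correlations r without those bulls lay between -0.87 and 0.90, so it rests on few animals.

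The result depended on the scaling between animals. On the FPKM as deposited, 5 of the 6 pairs passed the limma test, with slopes between 0.50 and 0.74 and adjusted p-values between 0.000353 and 0.0324. On the same values 14327 of 16613 genes were associated with FKBP5.

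**Figure D3:**
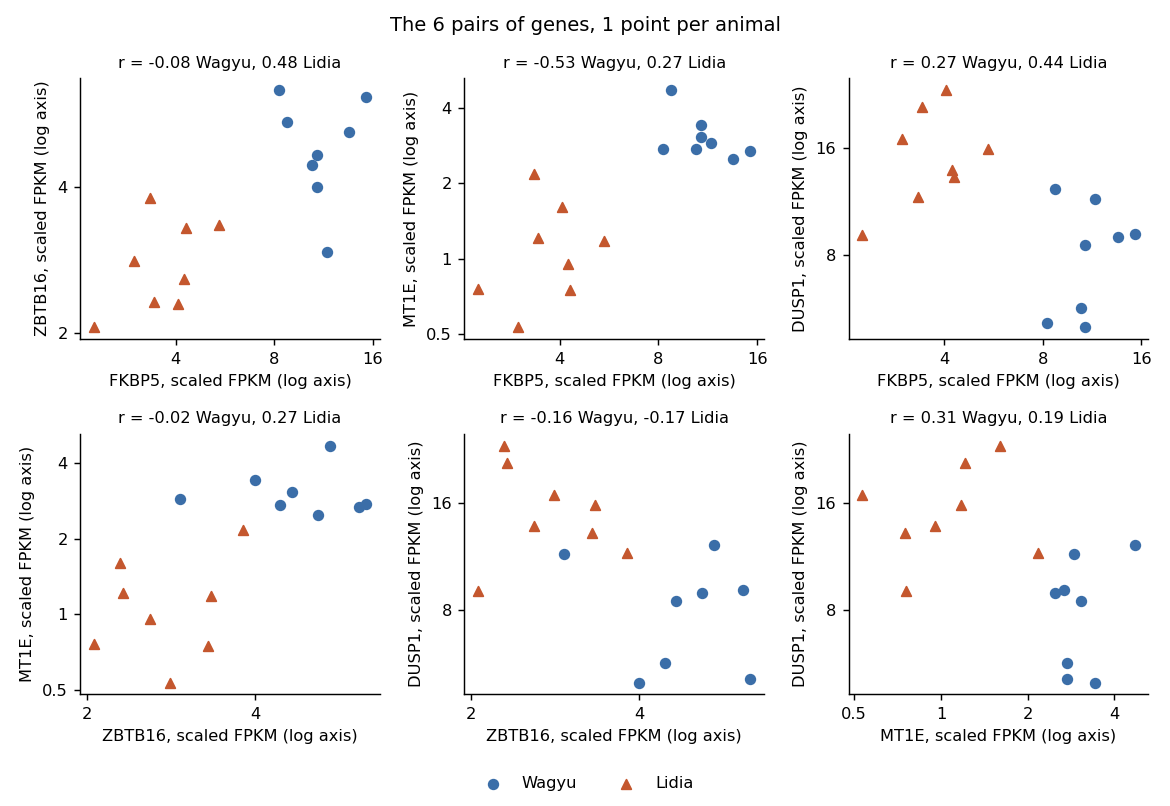
The 6 pairs of the genes, with the scaled FPKM of each on logarithmic axes, 1 point per animal (circles, Wagyu; triangles, Lidia), and Pearson's r of the log2 levels in each breed. The breeds do not overlap in the panels with FKBP5 or MT1E, whereas for ZBTB16 with DUSP1 their ranges overlap on both axes. Within a breed r is between -0.53 and 0.48.

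When every other gene was tested for association with one of the 4 within breed, the genes differed. FKBP5 had 0 associated genes by limma, with 561 at an unadjusted p under 0.05 (3.38%), and MT1E had 0, with 363 at an unadjusted p under 0.05 (2.19%). DUSP1 had 1 (0.00603%), with 817 at an unadjusted p under 0.05. ZBTB16 had 817 (4.93%), of which 734 rose with it and 83 fell.

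The only gene associated with DUSP1 was KLF4, a zinc finger transcription factor that is induced as an immediate early gene and is active in endothelium. Its slope on DUSP1 was 1.00 (SE 0.14), with an adjusted p of 0.0275. KLF4 ranged from 0.681 to 2.27 scaled FPKM in the Wagyu and from 1.55 to 3.96 in the Lidia bulls, and r of the log2 levels was 0.92 and 0.90 (rho 0.76 and 0.86), and 0.80 and 0.75 without the 2 bulls farthest from the DUSP1 median. It is the gene with the highest r of all 16576, so r is given without a p. The call was lost under several alternatives: leaving out 1 animal gave 0 associated genes for 11 of the 16 animals, and 0 also with the meningeal marker level in the fit or without the 2 animals with the largest scaling factors.

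The next genes with a symbol were KLF2, a related transcription factor of endothelium, with r 0.80 over the 16 animals after subtracting the breed means, and AHNAK, a large scaffold protein, with r 0.79. Neither passed the test (adjusted p 0.364 for both). Of the 8 immediate early genes and MAP kinase phosphatases other than DUSP1 that carry a symbol, 5 had an unadjusted p under 0.05 for their slope on DUSP1, namely KLF4, KLF2, JUNB, NR4A1 and EGR2. The same held for 5 of 8 markers of endothelium and mural cells and 3 of 13 of meningeal fibroblasts, and over all genes for 4.93%. The list genes all carry a symbol, and the share among all genes with a symbol was not determined for these slopes. Whether the lists exceed that share was therefore not tested.

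**Figure D4:**
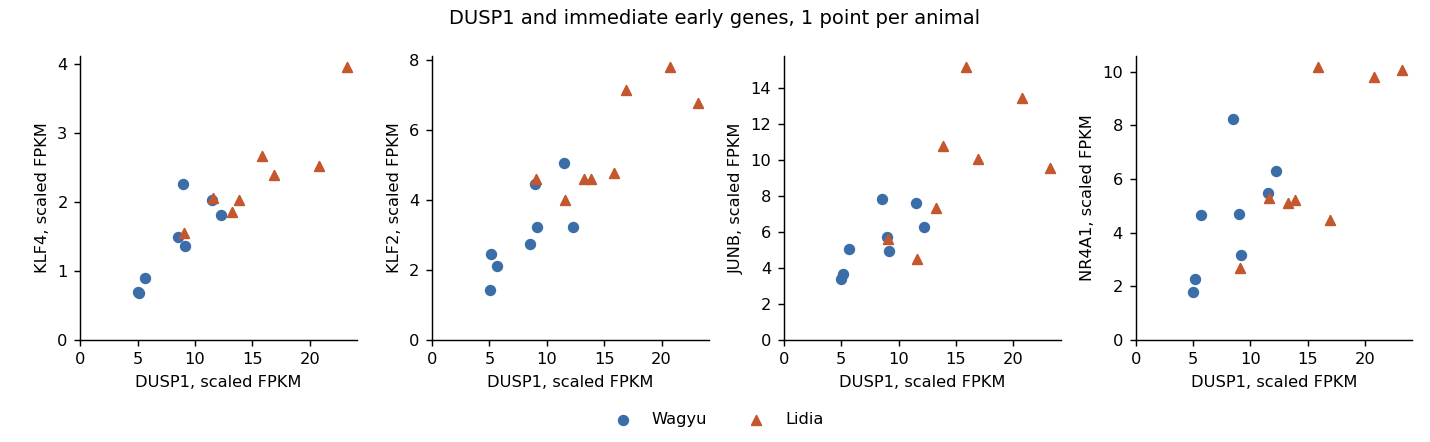
Scaled FPKM of KLF4, KLF2, JUNB and NR4A1 (vertical axes) against DUSP1 (horizontal axes), linear from 0, with 1 point per animal (circles, Wagyu; triangles, Lidia). KLF4 follows DUSP1 most closely in both breeds, and the 4 Lidia bulls with the highest DUSP1 also have the 4 highest KLF4 values of the Lidia group.

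For ZBTB16 the genes with the highest r and a symbol were TACC1, a protein of centrosomes and microtubules (r 0.87, slope 0.98, SE 0.16, adjusted p 0.0074), LTN1, a ubiquitin ligase of stalled ribosomes (r 0.83, slope 1.00, SE 0.19, adjusted p 0.0109), and PSD3, an exchange factor for small GTPases (r 0.82, slope 1.12, SE 0.21, adjusted p 0.0106). TACC1 ranked 40th of all genes by r, and the first places were held by genes without a symbol here, led by ENSBTAG00000002520 (r 0.94) and ENSBTAG00000005474 (r 0.93). Of the 817 associated genes 19 carry a symbol, and 4 were also called between the breeds.

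The genes associated with ZBTB16 differed in length by direction. The genes that rose with ZBTB16 had a median exon length of 3046 bases and those that fell 1376 bases, against 2130 bases over all genes tested. A length gradient was computed for each animal from log2 levels centred on each gene's mean over all animals. It was the median centred level of genes over 4000 bases minus that of genes under 1000 bases. Its relation to each of the 4 genes was computed in each breed. The r of ZBTB16 was 0.73 in the Lidia group (exact p = 0.0445, adjusted 0.178; rho 0.71, exact p = 0.0576, adjusted 0.154) and 0.76 in the Wagyu group (exact p = 0.0295, adjusted 0.178; rho 0.79, exact p = 0.0279, adjusted 0.147), and 0.53 and 0.79 without the 2 bulls farthest from the median gradient. None of the 8 relations passed after adjustment. MT1E in the Wagyu group had r -0.50 (exact p = 0.22, adjusted 0.588; rho -0.76, exact p = 0.0368, adjusted 0.147; r -0.44 without the 2 farthest bulls), and the remaining 5 had exact p-values of 0.428 or more for r. With the gradient in the fit, an alternative chosen after seeing the data, limma called 0 genes for ZBTB16, and 1154 had an unadjusted p under 0.05. The log2 difference of ZBTB16 between the breeds was -0.73 with the gradient in the fit.

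Among genes with a symbol, those most like FKBP5 were HCLS1, an adaptor protein of blood cells and microglia (r 0.74), DHCR7, the enzyme of the last step of cholesterol synthesis (r 0.72), and SCD, the stearoyl-CoA desaturase (r 0.70). They ranked 2nd, 8th and 13th of all genes, behind ENSBTAG00000019885 (r 0.75) in the first place. HCLS1 was also lower in the Lidia group without overlap, from 0.606 to 1.36 against 1.64 to 2.96 scaled FPKM. For MT1E they were AK8, an adenylate kinase (r 0.79), APOLD1, an early response gene of endothelium (r 0.67), and DLL4, a Notch ligand of endothelium (r 0.65), which ranked 1st, 18th and 24th of all genes. None of these 6 passed the test, with adjusted p-values between 0.637 and 1.00. The r of AK8 with MT1E was 0.87 in the Lidia and 0.20 in the Wagyu bulls, a difference that was not tested. The scaled FPKM of MT1E separated the Lidia farms, which depends on how fragments were divided among its transcripts. The part of farm in the former r was not tested.

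The other genes of the pathway were read from lists of receptor, hormone and target genes, of which only those in the study's table have a symbol. That table was drawn up on the same contrast and animals, so the differences of list genes are no independent evidence, and their values are given, as for the 4 genes, without a p. Whether a list gene passed the limma test is stated only as a count to set beside the shares of all genes with a symbol. Of 12 genes of the receptor and its machinery 1 could be read, the receptor NR3C1 itself. Its scaled FPKM was 2.18 to 2.69 in the Wagyu bulls with a median of 2.35, and 2.80 to 3.58 in the Lidia bulls with a median of 3.20. The groups did not overlap, and the log2 difference was 0.42 (SE 0.07). Of 7 genes of the stress hormone system 1 could be read, CRHBP, which encodes a protein that binds and holds back corticotropin-releasing hormone. It was between 9.52 and 12.5 in the Wagyu and between 3.96 and 9.15 in the Lidia bulls, with a log2 difference of -0.90 (SE 0.16). Both were called.

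Of 29 further glucocorticoid-responsive genes 13 could be read. Among them 2 were called higher and 4 lower in the Lidia group, 7 were not called, and the median log2 difference was 0.47. Over all genes with a symbol the median was 0.61 and the share called 44.5%, and over all genes tested the median was -0.01. The genes called lower were ARRDC2, an arrestin-domain protein (-1.26, SE 0.23), PDK4, a kinase that restrains pyruvate dehydrogenase (-1.06, SE 0.23), NEDD9, a scaffold of focal adhesions (-0.63, SE 0.14), and PER2, a repressor of the circadian clock (-0.53, SE 0.13).

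The genes called higher were CDKN1C, an inhibitor of the cell cycle (1.15, SE 0.22), and SGK1, a kinase that glucocorticoids induce in many tissues (0.51, SE 0.13). TGM2, a transglutaminase, had the widest difference of the list, 2.01 (SE 0.57), and was not called. The remaining 6 were GADD45B at -0.67, CRISPLD2 at -0.51, FOXO1 at 0.47, TXNIP at 0.49, MT2A at 0.51 and IGFBP2 at 1.21. Known targets thus lay on both sides of 0, as did the 4 genes themselves.

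Of 19 immediate early genes and MAP kinase phosphatases 8 could be read, and 3 were called. KLF2 was higher (0.87, SE 0.22). EGR3, a transcription factor induced by neuronal activity, was lower (-0.95, SE 0.20), and so was DUSP6, a phosphatase of the MAP kinase ERK (-0.63, SE 0.17). EGR2 at -1.35, EGR4 at -0.53, NR4A1 at 0.54, JUNB at 0.72 and KLF4 at 0.79 were not called.

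With the meningeal marker level in the fit, an alternative chosen after seeing the data, limma called 4 genes in all between the breeds, 0 of them higher in the Lidia group, with 1970 at an unadjusted p under 0.05, and no gene of the pathway and marker lists was called. The differences of the genes called higher were then 0.34 (SE 0.10) for NR3C1, 0.86 (SE 0.30) for CDKN1C, 0.30 (SE 0.18) for SGK1 and 0.37 (SE 0.27) for KLF2. Those called lower were -0.48 (SE 0.18) for CRHBP, -1.19 (SE 0.34) for ARRDC2, -1.26 (SE 0.33) for PDK4, -0.79 (SE 0.20) for NEDD9, -0.71 (SE 0.18) for PER2, -1.003 (SE 0.29) for EGR3 and -0.71 (SE 0.25) for DUSP6. Among the further responsive genes that had not been called, 3 turned sign. TGM2 was then at -0.23 (SE 0.31), TXNIP at -0.098 (SE 0.28) and IGFBP2 at -0.044 (SE 0.42). MT2A was at 0.92, FOXO1 at 0.23, GADD45B at -0.82 and CRISPLD2 at -1.02, with their signs kept. The marker level is itself a sum of genes read from the study's table of the same contrast. Its median was 40.9 scaled FPKM in the Lidia and 8.18 in the Wagyu bulls. Breed and marker level thus overlap in this fit, and a change in a difference cannot be assigned to either.

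**Figure D5:**
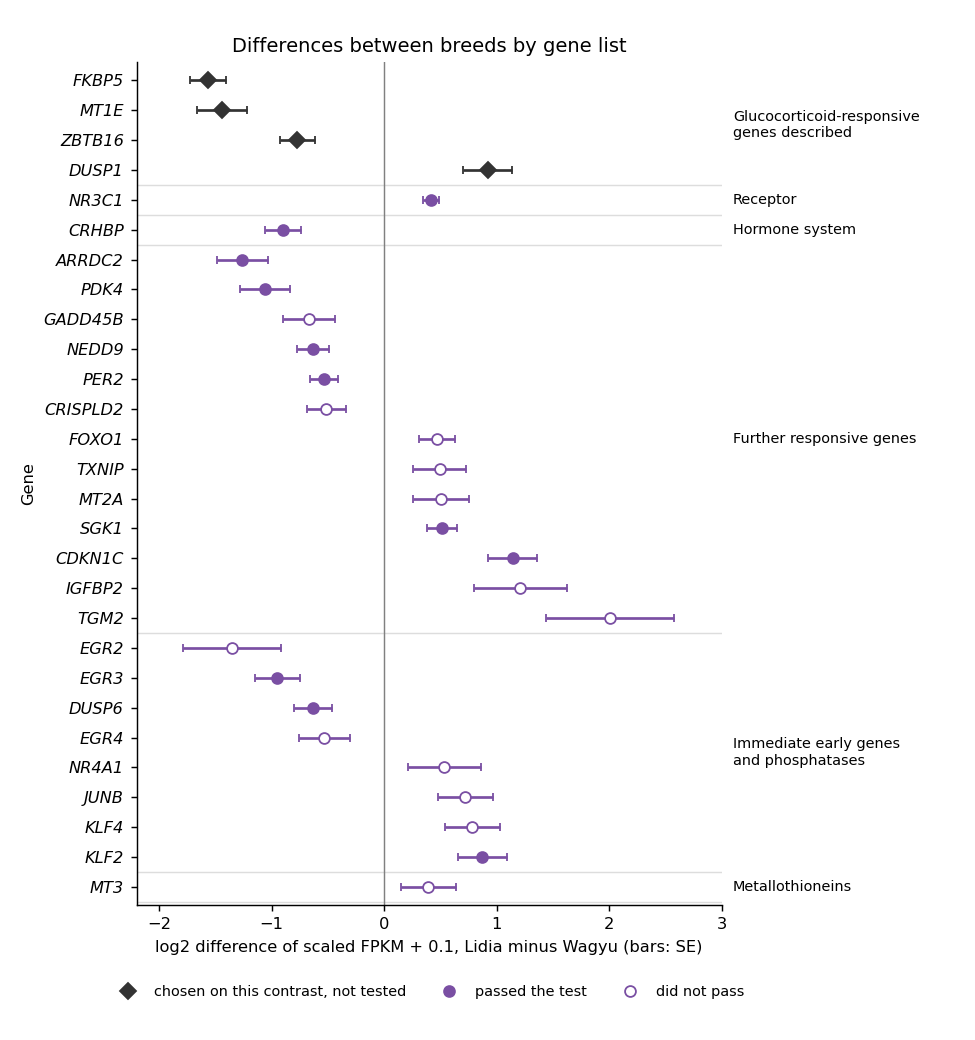
log2 differences (horizontal axis, Lidia minus Wagyu, bars for the SE) of the 4 genes (diamonds, not tested) and of the list genes that carry a symbol (filled circles, adjusted p of at most 0.05 in limma; open circles, not called; all read from the study's table of the same contrast). Differences lie on both sides of 0 in the 2 longer lists, from -1.35 for EGR2 to 2.01 for TGM2.

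Within breed, no list gene was associated with FKBP5 after adjustment. At an unadjusted p under 0.05, 3 of the 13 further responsive genes were listed (GADD45B, PDK4 and ARRDC2) with 1 of the 8 immediate early genes (EGR2), and 0 genes of the receptor and hormone lists, where 3.38% of all genes were. The slopes of GADD45B, PDK4 and ARRDC2 on FKBP5 were 0.95, 0.84 and 0.81 log2 units per log2 unit. On DUSP1, 5 of the 13 reached that unadjusted p, where 4.93% of all genes did, and on ZBTB16 and MT1E 0 did. The shares of all genes are not a matched baseline, since the share among genes with a symbol was not determined.

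Markers of other cell types moved with breed beside these genes. They too are readable only through the study's table, in which 76.5% of genes with a symbol have a higher mean in the Lidia group and 34.2% are called higher, so their counts are descriptions. All 13 readable meningeal fibroblast markers had a higher mean in the Lidia group, 7 of them called, and their summed level was 6.37 to 30.8 scaled FPKM in the Wagyu and 15.6 to 100.2 in the Lidia bulls. All 8 markers of endothelium and mural cells were higher, 4 of them called (sums 20.1 to 47.9 and 39.1 to 130). Of the markers of astrocytes 3 of 3 were higher with 2 called, of oligodendrocytes 6 of 6 with 1 called and of myeloid and blood cells 4 of 4 with 2 called, while the 3 neuronal markers were lower and not called. In bulk tissue, fewer cells of a type and less RNA per cell cannot be told apart.

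No relation of the meningeal marker level with one of the 4 genes within a breed reached an exact p of 0.05. For DUSP1 its r was 0.39 in the Lidia group (exact p = 0.335; rho 0.43, exact p = 0.299; r 0.68 without the 2 farthest bulls) and 0.60 in the Wagyu group (exact p = 0.127; rho 0.71, exact p = 0.0576; r 0.87 without the 2 farthest bulls). For endothelial and mural markers the r of DUSP1 was 0.48 (exact p = 0.272; rho 0.38, exact p = 0.360; r 0.04 without the 2 farthest bulls) and 0.63 (exact p = 0.0918; rho 0.69, exact p = 0.0694; r 0.80 without the 2 farthest bulls). Among the 16 relations of the 4 genes with these marker sums in each breed, the lowest adjusted p was 0.744 for r and 0.073 for rho, the latter for ZBTB16 with endothelial markers in the Lidia group (rho -0.90, exact p = 0.0046). With the meningeal marker level in the fit the log2 difference was -1.80 for FKBP5, -0.67 for ZBTB16 and -1.22 for MT1E. The part of cell composition in the differences was not tested, since the marker level itself differs between the breeds.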

How the data were processed

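RNA of 1 PFC sample per bull was sequenced from stranded mRNA libraries. Per the labels and the study's methods, the authors trimmed reads with PRINSEQ, mapped them with STAR 2.7.3a to ARS-UCD 1.2 and estimated transcripts with Cufflinks 2.2.1. The deposited values are FPKM and coverage per annotated transcript, with no scaling between animals and no counts, before the authors' merging and Cuffdiff steps. All files list 43984 transcripts of 27607 genes. Fragments were computed as deposited coverage times length divided by 200 bases.

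Gene FPKM, the sum over transcripts, was divided by median-of-ratios factors. A mean of 0.1 or more was required of a gene, and the scale was log2(FPKM + 0.1), which understates changes of low genes. The test was limma 3.58.1 in R 4.3.3 (variance trend, two-sided, Benjamini-Hochberg adjustment). A call needed an adjusted p of at most 0.05 and, between breeds, a log2 difference of at least 0.1. Associations within breed used the log2 level of one gene as regressor and breed as covariate. Farm was not in these fits. Correlations used all 40320 pairings of 8 animals (Python 3.11.15, scipy 1.17.1). In simulated data the breed fit recovered 72% of 200 genes changed by 1 log2 unit among 16577. The FKBP5 fit recovered 45% of 200 genes with a slope of 1 and 84.5% with a slope of 2 among 16576. Noise was drawn independently for each simulated gene, so these shares need not hold where genes vary together between animals.

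Symbols came from the study's gene table by identical position: of 1197 entries, 1102 paired with a single gene. Its columns of the authors' own comparison were not used. Farms came from the study's sample table. Animals are numbered in the order of the record. The named genes were the 4 genes, fixed lists of receptor, hormone, target, metallothionein, immediate early and cell type marker genes, and for each of the 4 the 3 genes with a symbol that were most like it by r, with at most 2 identifiers above them. The genes and lists were chosen with earlier results of these data known. An exact permutation test of transcript shares between the breeds had been planned and is not given, since that contrast chose the gene. No sequence of these genes was at hand, and none is printed. Replicates are animals, so p-values measure the spread between animals. Alternatives were other scalings, pseudocounts, filters, weights, covariates and left-out animals.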

Additional observations from a re-analysis of the deposited data

Results flagged for a closer look

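In each breed 28 genes were looked at, which gives 56 groups of 8 animals. In 8 of these groups the gap from the highest value to the next exceeded the critical value of Dixon's test. That test assumes normally distributed values, and it was applied to scaled FPKM and not to their log2. How often such gaps arise by chance is therefore not known here, and the 8 groups are given as descriptions. The values are scaled FPKM. Wagyu replicate 7 had 4.70 of MT1E, the next animal 3.42. Lidia replicate 6 had 229 of MT2A, 1152 of MT3 and 4.64 of CDKN1C, against 72.6, 352 and 2.44 in the next animals, and this bull also had the lowest scaling factor of the 16, 0.617. Lidia replicate 5 had 3.96 of KLF4 and 1.43 of CRISPLD2, against 2.67 and 0.884. Lidia replicate 8 had 1.23 of EGR2, against 0.399, and Wagyu replicate 5 had 8.41 of DUSP6, against 5.53. The cause of these values was not tested.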

How the results depend on the processing

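No paired analysis was possible because no label pairs animals of the breeds by litter, donor or batch, and the animals were numbered in the order of the record. Under 14 alternatives each, beside leaving out single animals, the 4 breed differences kept their direction, with log2 values from -1.80 to -1.36 for FKBP5, -0.82 to -0.61 for ZBTB16, -1.91 to -0.95 for MT1E and 0.48 to 1.13 for DUSP1. The DUSP1 value of 0.48, with the meningeal marker level, had an SE of 0.29 and lay within 2 SE of 0. MT1E was -0.95 with a pseudocount of 1, -1.91 with La Quinta alone and -0.97 with Montealto alone.

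The count of genes between breeds (827) was 0 as deposited (1022 at an unadjusted p under 0.05), 3088 with array weights, 207 without the 2 animals with the largest scaling factors, 284 with La Quinta alone and 51 with Montealto alone. Under the settings chosen after seeing the data it was 1684 with the length gradient, 4 with the meningeal marker level and 355 without the 3 extreme animals. Leaving out 1 animal gave 363 to 1424. It moved the count by over 1.5 times for Wagyu replicates 2 (1424), 4 (450), 5 (409), 6 (479), 7 (417) and 8 (363) and Lidia replicates 2 (448), 3 (417), 4 (445) and 5 (416).

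The count for ZBTB16 (817) was 12756 as deposited, 4684 with array weights, 142 without the 2 animals, 2625 with the meningeal marker level, 538 with the scaling factor in the fit and 231 without the 3 animals. It was 0 in the Lidia or the Wagyu group alone (1035 and 3142 at an unadjusted p under 0.05), where only 8 animals enter, and 0 with the length gradient (1154). Leaving out 1 animal gave 211 to 1589, with 494, 309, 246 and 211 without Wagyu replicates 1, 3, 4 and 6, and 431, 1589, 336 and 507 without Lidia replicates 1, 5, 7 and 8. The count for FKBP5 was 14327 as deposited and 0 otherwise. For MT1E it was 0 throughout. The count for DUSP1 (1) was 10016 as deposited and 0 with no filter, without the 2 animals, with the meningeal marker level, with ranks, and in the Lidia or the Wagyu group alone (291 to 1249 at an unadjusted p under 0.05). Leaving out 1 animal gave 0 to 2: 2 without Wagyu replicate 7, 0 without Wagyu replicates 1, 3, 5, 6 and 8 and Lidia replicates 1, 2, 3, 4, 5 and 8.

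As deposited, the slopes of the pairs were 0.74 for ZBTB16 on FKBP5, 0.50 for MT1E on FKBP5, 0.70 for DUSP1 on FKBP5, 0.55 for MT1E on ZBTB16 and 0.54 for DUSP1 on ZBTB16, all past the threshold. The slope of ZBTB16 on FKBP5 was -0.10 in the Wagyu group and -0.0057 with the length gradient. That of MT1E on FKBP5 was -0.056 with a pseudocount of 1, -0.076 with array weights, -0.0067 with ranks and -0.51 in the Wagyu group, and -0.19 to 0.24 when 1 animal was left out. MT1E on ZBTB16 was -0.019 in the Wagyu group and -0.14 to 0.34 with 1 animal left out, and DUSP1 on ZBTB16 -0.52 to 0.076. None of these turned slopes passed the test, except that of DUSP1 on ZBTB16 as deposited. The cause of these changes was not tested.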
